A study of Homo sapiens with 4 samples.

Results

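J-domain proteins, also called HSP40s or DNAJ proteins, are the cochaperones that direct HSP70. Their genes were taken as every row whose symbol starts with DNAJA, DNAJB or DNAJC and a digit, without antisense, read-through and pseudogene symbols, which gave 44 genes of the 19749 in the table. Of these, 41 had an adjusted p-value and count as tested, out of 14812 tested genes. The libraries came from U87, an established human glioblastoma cell line, grown in medium with serum and given either the vehicle DMSO (n = 2 libraries) or the small molecule YZ129 at 5 µM for 24 h (n = 2 libraries). The series title places YZ129 against the HSP90, calcineurin and NFAT pathway. The labels do not say whether the 2 libraries of a group are separate cultures, so p-values measure the spread between libraries, which may be technical. Poly(A) RNA of whole cultures was sequenced, and in such bulk RNA fewer cells with a transcript and less of it per cell cannot be told apart.

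A J domain binds HSP70 and speeds its hydrolysis of ATP, which closes HSP70 on a client protein; the rest of the J protein chooses the client or the place. Classes A and B resemble bacterial DnaJ and mostly serve general folding, while class C shares little beyond the J domain and holds members tied to the endoplasmic reticulum (ER), mitochondria, clathrin vesicles, ribosomes and splicing. Some class A and B genes are textbook targets of HSF1, the heat shock factor that is released when HSP90 is inhibited.

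All values per gene are those of the authors' deposited table: a log2 fold change ± its standard error (SE), an adjusted p-value, and a mean level, which is the mean of read counts divided by library size factors, not scaled to gene length. Which group is the numerator is left unsaid, and the comparison's name puts DMSO first. A positive value was read as higher with YZ129, because 10 of 26 heat shock genes without a J domain were called positive and 0 negative; at an unadjusted p under 0.05, 11 were positive and 1 negative (PTGES3). If the table is signed the other way, every "rose" here becomes "fell". Since the reading was set by heat shock genes, the direction of heat-inducible J-domain genes is a consequence of it and no separate finding; sizes and p-values do not depend on it. The mean level was found to cover 8 libraries, 4 of them outside the comparison. Whether the SEs and p-values also draw on those 4 is not stated. They need not measure just the spread of the compared libraries. Library totals were not analysed here, so the depth in reads is unknown.

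HSF1 binds DNA at repeated GAA units that face each other, written GAANNTTC or TTCNNGAA, which are each their own reverse complement and so cover both strands. RefSeq promoter windows (250 bases before to 50 after an annotated start, GRCh38.p14) were matched to 40 of the 44 genes, in 52 windows. Such a pair stood in 9 of these windows (17.3%), beside 13.5% of all 35116 windows, and in 8 genes. Pairs of DNAJB7, DNAJC6 and DNAJC15, whose log2 fold changes were 0.13, -0.01 and -0.29, are not shown. The stretches below show units of the other genes with a pair, 5′ to 3′ on the gene's strand, with the units in capitals:
DNAJB1: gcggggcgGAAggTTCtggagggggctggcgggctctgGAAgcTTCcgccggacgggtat
DNAJA4: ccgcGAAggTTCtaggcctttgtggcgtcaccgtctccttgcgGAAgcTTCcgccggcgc
DNAJB4: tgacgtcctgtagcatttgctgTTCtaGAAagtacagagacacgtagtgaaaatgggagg
DNAJB6: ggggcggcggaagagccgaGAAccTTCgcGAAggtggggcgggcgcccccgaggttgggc
DNAJA1: ggcgcgccgggcgGAActTTCcaGAAcgct

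These stretches lie at chr19:14518423-14518482 on the minus strand (DNAJB1) and, on the plus strand, at chr15:78264467-78264526 (DNAJA4), chr1:78004819-78004878 (DNAJB4), chr7:157336854-157336913 (DNAJB6) and chr9:33025263-33025292 (DNAJA1). In DNAJB1 the pairs shown begin 77 and 47 bases upstream of one annotated start, and a further pair begins at transcript base 2 of another; in DNAJA4 they begin 91 and 52 bases upstream. DNAJB1 and DNAJA4 share the 15 bases ggaagcttccgccgg, a run found in 2 of all windows, those 2. The single pair of DNAJB4 begins 98 bases upstream of one of its annotated starts. Overlapping pairs that make 3 units occurred in DNAJB6, 131 bases upstream, and in DNAJA1, from base 4 of the annotated transcript. A further DNAJA1 pair, not shown, begins 198 bases upstream in the same window. Of all windows 0.490% hold 3 units. A match is a description of letters, not a measured binding site.

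With YZ129, 4 J-domain genes rose and none passed as lower. By the authors' adjusted p-values, in DESeq2's column layout, 4 of 41 tested members (9.76%) were called higher at a threshold of 0.05, where 5.24% of all tested genes were. As lower, 0 of 41 were called by these DESeq2-style values, beside 7.64% of all tested genes. At an unadjusted p under 0.05, 1 member was lower and 8 were higher. Of all 14812 tested genes, 2145 were lower and 1549 higher at that unadjusted threshold. In either direction 12.9% of all tested genes were called. Those calls were 40.7% higher, and 51.9% or 53.4% higher once changes were centred on the median of tested genes or within deciles of mean level. The median change of the 41 members was -0.02, beside -0.05 for all tested genes, with 17 members above 0 and 24 below. Among all tested genes 6510 were above 0 and 8302 below. By class, 1 of 4 class A genes rose (median 0.39), 2 of 11 class B genes (median 0.13) and 1 of 26 class C genes (median -0.08).

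**Figure D1:**
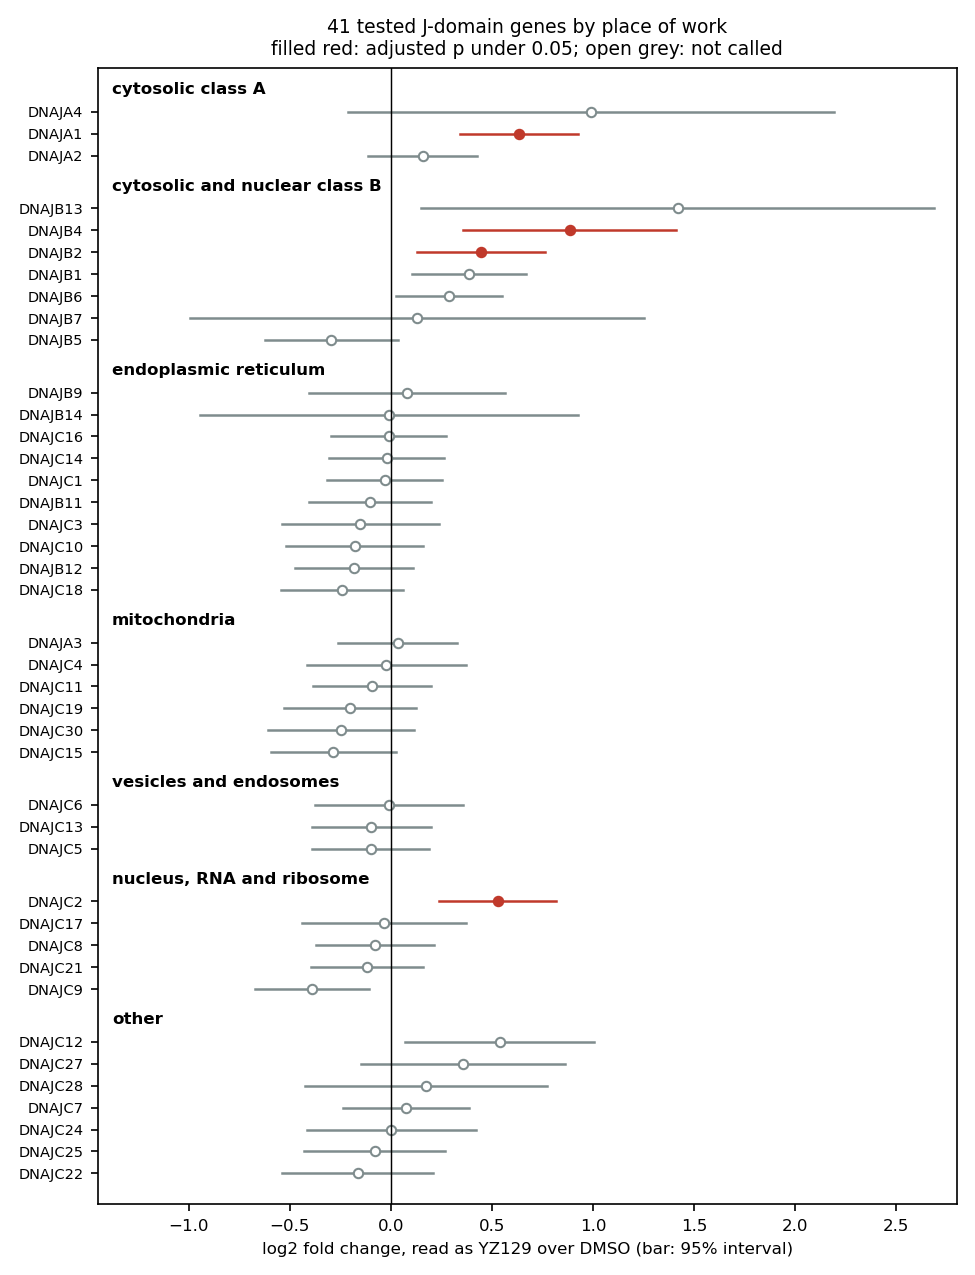
Log2 fold change (x axis, read as YZ129 over DMSO) of the 41 tested J-domain genes (rows, grouped by place of work), with bars for the 95% interval from the deposited SE. The 4 called genes, filled red, are DNAJA1, DNAJB4, DNAJB2 and DNAJC2; ER and mitochondrial members lie between -0.29 and 0.08.

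Among the class A proteins of the cytosol, the closest relatives of bacterial DnaJ, DNAJA1 rose. DNAJA1 assists HSP70 in folding and import of proteins; it was 1.55-fold higher in the authors' deposited table (0.63 ± 0.15, adjusted p = 0.00053, DESeq2 columns), at a mean level of 15131. This was the smallest adjusted p of the family, and over the alternatives tried it ranged from 5.94e-06 to 0.00071. Its processed pseudogenes can share its reads; the 1 with a row, DNAJA1P5, had a mean level of 0.21 in the authors' deposited table. DNAJA2, its constitutive relative, stood at 0.16 ± 0.14 (adjusted p = 0.53) in the authors' deposited table. DNAJA4, a heat-inducible class A member, was at 0.99 ± 0.61 (adjusted p = 0.32) in the authors' deposited table, with an interval of -0.21 to 2.19 that holds both 0 and the value of DNAJA1.

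For DNAJA4 and other genes with few reads the mean level could be taken apart into whole reads per library. The libraries of the YZ129 side held 19 and 21 DNAJA4 reads, and those of the DMSO side 8 and 9. Divided by size factors these became 16.3 and 20.7 against 6.88 and 9.69, and the ratio of the means was 2.23, above the 1.99-fold of the authors' deposited table, whose changes are moderated towards 0. Both YZ129 libraries lay above both DMSO libraries. With 2 libraries a side this order often arises without any change, so it is no evidence of a rise.

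Class B members of the cytosol and nucleus gave 2 calls among 7 tested, both higher, and 6 of the 7 values were above 0. Of all 14812 tested genes 5.24% were called higher, and 6510 were above 0. Whether these 7 genes differ from those shares was not tested. Heat shock genes set the sign, so the direction of heat-inducible members is no separate finding. DNAJB4, a DNAJB1 relative with broad client binding, was 1.84-fold higher in the authors' deposited table (0.88 ± 0.27, adjusted p = 0.012, DESeq2 columns), with a mean level of 736. Its SE stood at the 97.6th percentile of genes of like level, so its 95% interval ran from 0.36 to 1.41. DNAJB2, which carries ubiquitin-binding motifs and guides misfolded clients to degradation, was 1.36-fold higher in the authors' deposited table (0.45 ± 0.16, adjusted p = 0.045, DESeq2 columns). That made it the member just inside the threshold, and its call was lost when p-values were adjusted over every gene with one (adjusted p = 0.060).

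DNAJB1, the main heat-inducible HSP40 of human cells, did not pass: the authors' deposited table gives 0.39 ± 0.14 (1.31-fold, adjusted p = 0.057, DESeq2 columns) at a mean level of 8570. Centred on the median of tested genes it passed, at an adjusted p of 0.026. DNAJB6, a suppressor of polyglutamine and amyloid aggregation, was at 0.29 ± 0.13 in the authors' deposited table (adjusted p = 0.15). DNAJB5, another DNAJB1 relative, was the 1 class B gene of the cytosol below 0, at -0.29 ± 0.17 (adjusted p = 0.26) in the authors' deposited table. The intervals of DNAJB4 and DNAJB1, 0.36 to 1.41 and 0.10 to 0.67, overlap, and their difference was not tested.

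The remaining class B genes had few reads. DNAJB13, an axonemal protein of cilia and sperm tails, had the highest fold of the family, at 1.42 ± 0.65 (adjusted p = 0.14, DESeq2 columns) in the authors' deposited table. Its reads were 22 and 16 on the YZ129 side and 7 and 4 on the DMSO side, a ratio of normalised means of 3.35 with no overlap between the sides. With 2 libraries a side, such a lack of overlap is no test of a change. DNAJB7, known from testis, was at 0.13 ± 0.57 in the authors' deposited table, and its reads overlapped: 14 and 19 on the YZ129 side, 10 and 18 on the DMSO side. The interval of DNAJB7 ran from -0.99 to 1.25, so it holds changes in either direction.

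**Figure D2:**
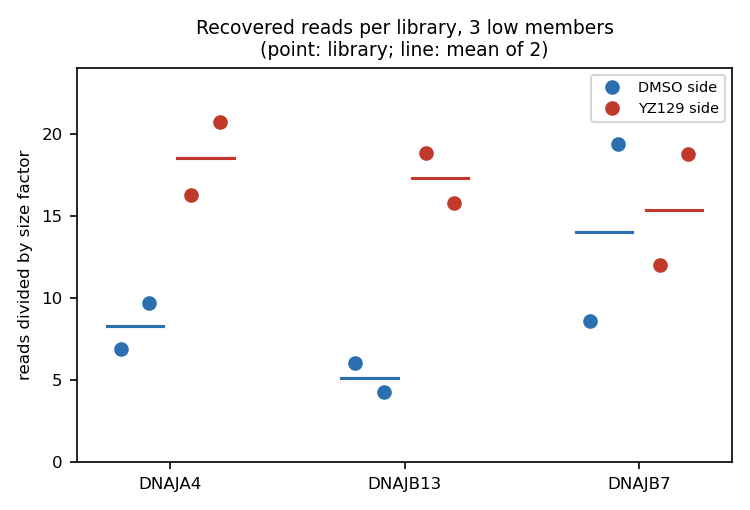
Reads divided by size factor (y axis) in each of the 4 compared libraries for DNAJA4, DNAJB13 and DNAJB7; points are libraries and lines the mean of 2. The YZ129 side lies above the DMSO side for DNAJA4 (ratio of means 2.23) and DNAJB13 (3.35), and the sides overlap for DNAJB7 (1.10). None of these genes passed.

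Of the 8 tested genes with a facing GAA pair in a promoter window, 2 rose (DNAJA1 and DNAJB4) and 0 fell, with a median of 0.34; DNAJA4, DNAJB1, DNAJB6, DNAJB7, DNAJC6 and DNAJC15 did not pass. Among the 30 tested members whose windows lacked a pair, 2 rose (DNAJB2 and DNAJC2) and 0 fell, with a median of -0.06. Among all tested genes 5.24% were called higher and 7.64% lower, with a median of -0.05. The sign was read from heat shock genes, so the direction in genes with a pair is no separate finding. The difference between the sets with and without a pair was not tested.

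J-domain proteins of the ER gave no calls: 0 of 10 passed by the deposited DESeq2-style values, where 12.9% of all tested genes did. With so few genes, 0 calls cannot be told apart from that share. At an unadjusted p under 0.05 there were also 0. Their values ran from -0.24 to 0.08 with a median of -0.07. Soluble members of the lumen, which serve the ER HSP70 BiP and are textbook targets of the unfolded protein response, lay close to 0 in the authors' deposited table: DNAJB9 at 0.08 ± 0.25, DNAJB11 at -0.10 ± 0.15 and DNAJC3, also an inhibitor of the kinase PERK, at -0.15 ± 0.20. DNAJC10, a disulfide reductase of ER-associated degradation whose mean level of 15953 was the highest of the family, was at -0.18 ± 0.17 in the authors' deposited table. The membrane-anchored DNAJB12 (-0.18 ± 0.15) and DNAJB14 (-0.01 ± 0.48), which help clear membrane proteins, did not pass either in the authors' deposited table.

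DNAJB14 was measured with the least certainty for its level. Its SE of 0.48 in the authors' deposited table, at a mean level of 1512, stood at the 98.9th percentile of its level decile, whose median SE was 0.16, and its interval ran from -0.95 to 0.93. Of the 7377 tested genes whose mean level reached 1000, 197 (2.67%) had an SE over 0.35, and DNAJB14 was the 1 such gene among 26 members at that level. The other ER members were DNAJC1 (-0.03 ± 0.14), DNAJC14 (-0.02 ± 0.15), DNAJC16 (-0.01 ± 0.14) and DNAJC18 (-0.24 ± 0.15) in the authors' deposited table. The 95% interval lay within 0.5 of 0 for 5 of the 10 ER members.

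**Figure D3:**
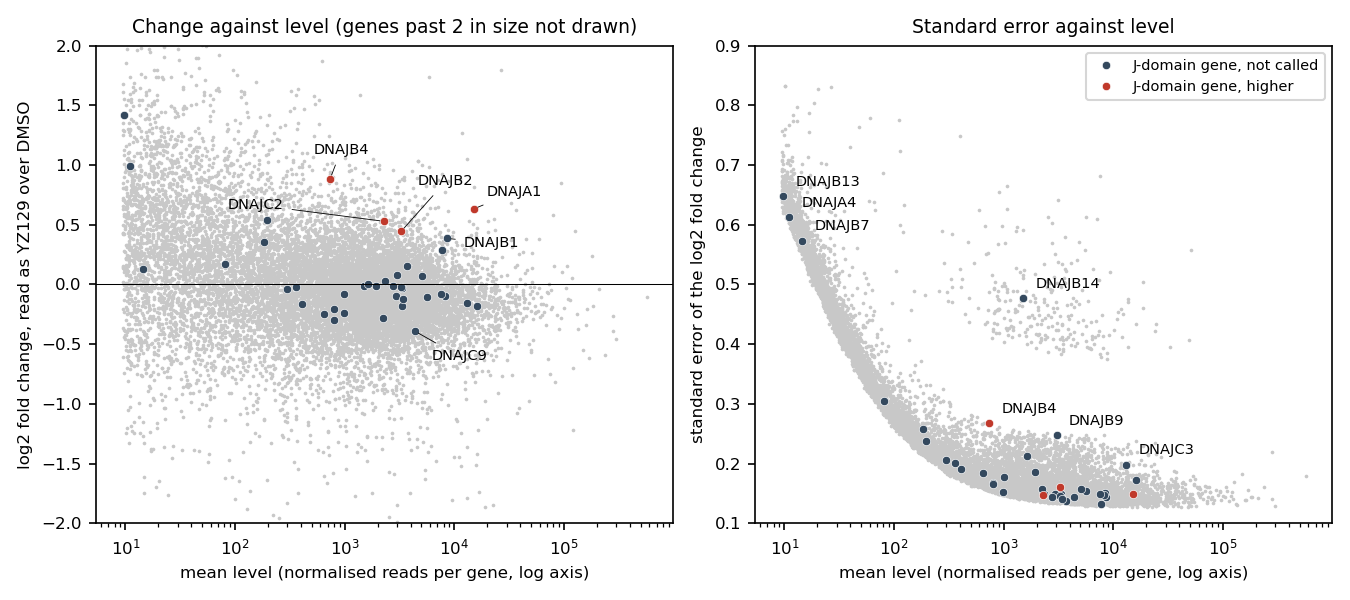
Log2 fold change (left, read as YZ129 over DMSO) and its standard error (right) against mean level in normalised reads per gene (log axis), with all tested genes in grey and J-domain genes in colour. DNAJB14, at 1512 with an SE of 0.48, lies in the separate cloud of large errors; DNAJA4, DNAJB13 and DNAJB7 follow the rise of the error at low levels.

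Mitochondrial members also gave no calls, 0 of 6 by the deposited DESeq2-style values, beside 12.9% of all tested genes. In a group of 6, 0 calls cannot be told apart from that share. At an unadjusted p under 0.05 there were also 0, and the median was -0.15. DNAJA3 (0.03 ± 0.15), the class A partner of mitochondrial HSP70, was nearest to no change among the class A genes in the authors' deposited table. DNAJC15 (-0.29 ± 0.16) and DNAJC19 (-0.20 ± 0.17), J proteins of the inner membrane import motor, lay below 0 in the authors' deposited table without passing. DNAJC30 (-0.25 ± 0.18), DNAJC11 (-0.09 ± 0.15), a partner of the cristae-organising complex, and DNAJC4 (-0.02 ± 0.20) likewise stayed short of the threshold in the authors' deposited table.

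Of the members that act on vesicles 3 were tested and 0 called by the deposited DESeq2-style values, beside 12.9% of all tested genes. A group of 3 is too small to tell 0 calls from that share. At an unadjusted p under 0.05 there were also 0. DNAJC5, the vesicle protein CSP-alpha, stood at -0.10 ± 0.15, the clathrin-uncoating auxilin DNAJC6 at -0.01 ± 0.19 and the endosomal DNAJC13 at -0.10 ± 0.15 in the authors' deposited table. All 3 intervals lay within 0.5 of 0. DNAJC5B and DNAJC5G, relatives of DNAJC5 with few reads, and DNAJB8 of class B were the 3 members without an adjusted p-value. DNAJC5G had 1 read in each YZ129-side library and 0 on the DMSO side, DNAJC5B 1 read on each side, and the 2 reads of DNAJB8 lay outside the 4 compared libraries.

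In the nucleus and on the ribosome, DNAJC2 rose. DNAJC2 (MPP11) forms the ribosome-associated complex that helps chains fold as they leave the ribosome; it was 1.44-fold higher in the authors' deposited table (0.53 ± 0.15, adjusted p = 0.0052, DESeq2 columns), with an interval of 0.24 to 0.82. HSPA14, the HSP70-like partner in that complex, was at -0.33 ± 0.15 (adjusted p = 0.13) in the authors' deposited table. The values of the 2 subunits therefore had opposite signs, with 1 of them passing, and their difference was not tested. The splicing-related DNAJC8 (-0.08 ± 0.15) and DNAJC17 (-0.03 ± 0.21) and DNAJC21 (-0.12 ± 0.14), a factor of ribosome assembly, stayed short of it in the authors' deposited table.

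DNAJC9, a cochaperone that binds histones H3 and H4, was the member just outside the threshold, at -0.39 ± 0.14 (adjusted p = 0.051, DESeq2 columns) in the authors' deposited table. Its interval ran from -0.67 to -0.11, and it passed when the adjustment covered just the genes whose mean level reached 100 (adjusted p = 0.045). Adjusted over every gene with a p-value it did not (0.067), nor when changes were centred on the median of tested genes (-0.34, adjusted p = 0.10) or within deciles of mean level (-0.27, adjusted p = 0.24). Among 8 histone chaperones and histone-handling factors of DNA replication 5 fell and 0 rose (8 lower at an unadjusted p under 0.05), with a median of -0.47 beside -0.05 for all tested genes and a background of 7.64% called lower. They were CHAF1B (-0.81 ± 0.15), ASF1B (-0.78 ± 0.16), MCM2 (-0.65 ± 0.15), CHAF1A (-0.49 ± 0.17) and TONSL (-0.45 ± 0.16) in the authors' deposited table; ASF1A, NASP and HAT1 did not pass. With changes centred on the median of tested genes 3 of the 8 passed, without CHAF1A and TONSL. Of the 7 genes of this histone list with a promoter window, 1 (MCM2) held a word bound by E2F factors (TTTCGCGC or TTTGGCGC on either strand). The word stands in 1.15% of all windows and in 3 of the 52 member windows, those of DNAJC9, DNAJC6 and DNAJC5G. In DNAJC9 it lies in the bases just before the start. The stretch, at chr10:73247256-73247315 on the minus strand of GRCh38.p14, is shown with the word in capitals because DNAJC9 lay furthest below 0 of the 41:
DNAJC9: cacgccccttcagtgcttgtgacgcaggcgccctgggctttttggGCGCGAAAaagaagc

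An overlapping antisense gene, DNAJC9-AS1, was at 0.29 ± 0.28 with a mean level of 103 in the authors' deposited table. Whether counting used the strand is not stated, so reads of DNAJC9 and its antisense partner may be mixed.

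The other class C members gave 0 calls among 7 by the deposited DESeq2-style values, beside 12.9% of all tested genes. Again 0 calls among so few genes cannot be told apart from that share. At an unadjusted p under 0.05 there was 1. That 1 was DNAJC12, a cochaperone of the aromatic amino acid hydroxylases, at 0.54 ± 0.24 (adjusted p = 0.12) in the authors' deposited table. DNAJC7, a protein with tetratricopeptide repeats that bind both HSP70 and HSP90, stayed near 0 at 0.07 ± 0.16 in the authors' deposited table. DNAJC24, an enzyme cofactor of diphthamide synthesis, was at 0.00 ± 0.21, and DNAJC27, a fusion of a small GTPase and a J domain, at 0.36 ± 0.26 in the authors' deposited table. DNAJC22 (-0.16 ± 0.19), DNAJC25 (-0.08 ± 0.18) and DNAJC28 (0.17 ± 0.31) complete the group in the authors' deposited table. Over the 37 tested members that did not pass, 18 had an interval within 0.5 of 0 and 19 had one reaching past it, which leaves a change of that size within the interval.

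HSP70 family genes listed as cytosolic were described next, whether or not a J protein is known to serve them. Of 8 tested cytosolic HSP70 genes 3 rose and 0 fell: HSPA6 (2.64 ± 0.23), HSPA1B (0.80 ± 0.15) and the constitutive HSPA8 (0.58 ± 0.14) in the authors' deposited table. The next list held 12 genes: HSP110s, nucleotide exchange factors and the other HSP70 cochaperones ST13, STIP1 and STUB1. Of these 12, 3 rose and 0 fell: BAG3 (0.99 ± 0.14), HSPH1 (0.88 ± 0.14) and HSPA4L (0.46 ± 0.16) in the authors' deposited table. The 6 genes that rose are also on the list that set the reading of the direction. Among all tested genes 5.24% were called higher and 7.64% lower. The median was 0.47 for the HSP70 genes and 0.02 for the list of 12. At an unadjusted p under 0.05, 4 of the 8 HSP70 genes were higher and 2 lower. The lower ones were HSPA12A (-0.37 ± 0.15) and HSPA14 (-0.33 ± 0.15) in the authors' deposited table. Of the list of 12, 4 were higher and 0 lower at that unadjusted threshold. HSPA1A and HSPA1B, and HSPA6 and HSPA7, are near-identical pairs whose reads the counting could split or drop, so their values are uncertain.

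Partners in the organelles gave 1 call, where 12.9% of all tested genes were called. These lists are too small to tell so few calls from that share. Of 11 ER partners 1 rose and 0 fell, the stress sensor ERN1 (0.72 ± 0.21 in the authors' deposited table), while BiP (HSPA5), the HSP70 that ER J proteins serve, was at -0.34 ± 0.14 in the authors' deposited table (adjusted p = 0.091). Of 12 mitochondrial partners 0 passed and 1 had an unadjusted p under 0.05 by the deposited DESeq2-style values; mitochondrial HSP70 (HSPA9) was at 0.01 ± 0.14 in the authors' deposited table. Of 9 clathrin coat genes 0 passed and 3 had an unadjusted p under 0.05, all lower, by the same DESeq2-style values. J-domain genes under other symbols gave 0 calls among the 3 reported and 0 at an unadjusted p under 0.05 by the DESeq2-style values: GAK (0.18 ± 0.15), SEC63 (-0.16 ± 0.16) and HSCB (-0.19 ± 0.17) in the authors' deposited table.

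**Figure D4:**
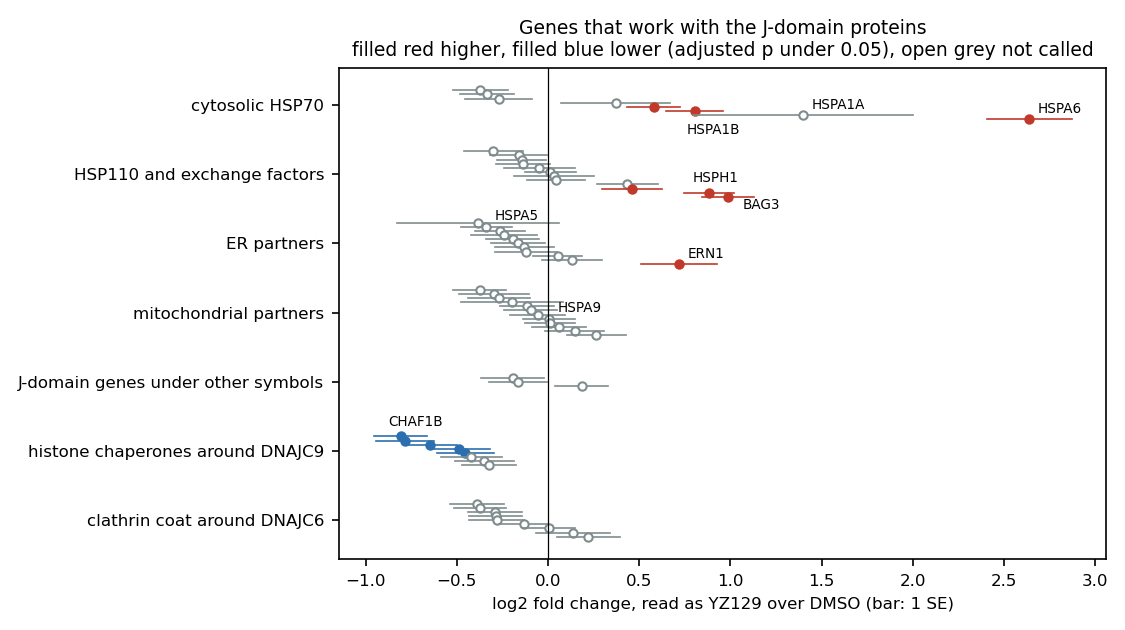
Log2 fold change (x axis, read as YZ129 over DMSO) of genes listed beside the J-domain proteins, by list (rows), with bars of 1 SE. The row of exchange factors also holds the cochaperones ST13, STIP1 and STUB1. Cytosolic HSP70 genes reach 2.64 (HSPA6), and mitochondrial partners lie between -0.38 and 0.26. Of 8 histone chaperones and histone-handling factors 5 are filled blue as lower, where 7.64% of all tested genes were called lower.

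Markers of cell identity moved as well, where 5.24% of all tested genes were called higher and 7.64% lower. Of 7 tested astroglial markers 4 fell (SLC1A3, SOX9, VIM and NES) and 0 rose, and of 5 neuronal markers 3 fell (SNAP25, TUBB3 and GAP43); the defining astroglial gene GFAP was low, with a mean level of 52.2 and a change of -0.56 ± 0.39 in the authors' deposited table. Blood markers gave 1 rise among 3 (LCP1), the defining gene PTPRC having a mean level of 2.28 in the authors' deposited table, and epithelial and endothelial markers gave 0 calls among 4 and 3 and 0 at an unadjusted p under 0.05 by the DESeq2-style values. Their part in the changes of the J-domain genes was not tested.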

How the data were processed

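The authors deposited 1 table, which compares the groups and gives nothing per library. The build hg19, Cuffdiff, Cufflinks 2.2.1 and TopHat2 2.0.12 appear in the submitters' processing notes without their roles. Per the file headers the columns are those of a DESeq2 result: a mean level (deposited signal, read counts over size factors), a deposited log2 fold change, its SE and Wald score (deposited scores), a deposited p-value and an adjusted p-value. Recomputed, the adjusted p equalled Benjamini-Hochberg values over the 14812 tested genes; 4937 genes had none and were left out of counts. An adjusted p under 0.05 was the call, and 95% intervals are normal intervals from the deposited SE. The fold changes are moderated, so low genes are understated.

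Mean levels of low genes add up from whole reads, each worth a fixed step per library. The 8 steps were found from genes with 2 reads, and the 4 libraries of the comparison were those whose 2-read genes had a median change over 0.1 in size. Among 60 genes drawn with mean levels as low as those of DNAJA4 and DNAJB13, 52 had exactly 1 solution at a tolerance of 4e-14, 8 had none and 0 several; of the 31 solved genes with a change over 0.3 in size, 31 had the deposited sign. Which replicate a library is cannot be told from this. Scripts were tested on simulated data. Members, lists and the rule for named genes (every member, and list genes that passed or that a result turns on) were chosen with earlier results of these data known; the roles, the SE bound of 0.35 and the E2F words were chosen after values or sequences were seen. Promoter coordinates are GRCh38.p14, not the build of the counts. Python 3.11.15, pandas 2.3.3, scipy 1.17.1 and networkx 3.6.1 were used. One gene of the list of J-domain genes under other symbols is not reported here.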

Additional observations from a re-analysis of the deposited data

How the results depend on the processing

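No paired analysis was possible because the table holds no values per library, and for the same reason no library could be left out. The 4 rises became 2 (DNAJA1 and DNAJC2) at an adjusted p under 0.01 and 0 when a log2 change of 1 or more in size was required; the absence of falls became 1 fall (DNAJC9) when the adjustment covered just the genes whose mean level reached 100. Calls among all genes were 776 higher and 1132 lower, but 446 and 698 at an adjusted p under 0.01, and 239 and 174 under that fold threshold. The 12 calls among partner genes became 1 (HSPA6) under it. The median of the members changed sign, to 0.029 centred on the median of tested genes and to 0.061 centred within deciles of mean level. With the latter 6 members rose, DNAJB1 (adjusted p = 0.0034) and DNAJB6 besides the 4. DNAJA1 and DNAJC2 kept their call under 5 of 6 alternatives, the exception being the fold threshold; DNAJB4 kept it under 4 and DNAJB2 under 3. Few reads limited DNAJA4, DNAJB7 and DNAJB13, with SEs from 0.57 to 0.65.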

Other observations

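Rows with a DNAJ symbol that were not counted as members were the antisense genes DNAJC9-AS1 and DNAJC27-AS1, at 0.29 ± 0.28 and 0.09 ± 0.62 in the authors' deposited table, and DNAJA1P5 and DNAJC25-GNG10, which had no adjusted p-value. HSPA1A, the near-identical partner of HSPA1B, had 23 and 15 reads on the YZ129 side and 5 and 6 on the DMSO side. The ratio of normalised means was 3.21, with no overlap between the sides and an adjusted p-value above the threshold. With 2 libraries a side, the lack of overlap is no test of a change.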
